A study of Mus musculus with 4 samples.

Results

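The unfolded protein response and the protein-folding machinery of the endoplasmic reticulum (ER) were examined through 36 genes in cultured mouse vascular smooth muscle cells (VSMCs) with and without knockdown of Mettl14. The 36 genes were taken from the gene count table by a list of symbols, and all 36 were found among its 48587 symbols. All 36 also passed the filter on low counts, which left 18916 genes for testing. They comprise 3 ER chaperones of the HSP70 and HSP90 type, 4 cochaperones of BiP, 2 lectin chaperones, 5 disulfide isomerases and oxidases, the collagen chaperone Serpinh1, 2 secreted or resident stress factors, 7 genes of ER-associated degradation, 4 stress sensors and transducers, 6 genes of the PERK and ATF4 branch and 2 translocon subunits.

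Secreted and membrane proteins enter the ER through the Sec61 channel, fold with the help of BiP, calreticulin and disulfide isomerases, and are sent to the proteasome by ER-associated degradation when folding fails. Excess unfolded protein activates the sensors IRE1 (Ern1), ATF6 and PERK (Eif2ak3). IRE1 splices the Xbp1 mRNA, ATF6 is cleaved to a transcription factor, and PERK phosphorylates eIF2α, which lowers general translation and favours translation of Atf4 and induction of Ddit3. Smooth muscle cells in the synthetic state secrete collagen and other matrix proteins and so rely on this machinery. Gene counts carry neither the splicing of Xbp1 nor the translation of Atf4 nor the cleavage of ATF6, so the values below are total mRNA levels.

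The 4 mRNA-seq libraries came from primary VSMCs that had grown out of aortas of C57BL/6J mice, aged between 8 and 12 weeks, and were at passage 5 to 7. Cells received lentivirus for 24 hours and, per the study's methods for transduction, were collected 48 hours after fresh medium was added. The 2 shCTR libraries carried a nontargeting hairpin directed at a plant microRNA sequence and the 2 shMettl14 libraries a hairpin against Mettl14, which encodes a subunit of the writer complex for N6-methyladenosine (m6A) in mRNA. Each group has 1 library marked A and 1 marked B, and the labels do not say whether a letter stands for a shared culture. The study names the Mettl14 hairpin of its sequencing experiments as shMettl14-2. All cultures thus received a lentiviral hairpin vector, no untransduced culture was part of the comparison, and p-values measure only the spread between these libraries.

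The libraries held between 114343653 and 124815868 counts. Mettl14 was at 18.0 and 19.9 normalized CPM (reads of a gene scaled to a common library size) in shCTR A and B, and at 4.60 and 4.37 in shMettl14 A and B, so both libraries labelled shMettl14 held less of the targeted mRNA. Its log2 fold change was -2.08 ± 0.25 (SE, n = 2 per group), with an adjusted p of 0.99997 by edgeR's quasi-likelihood test over all genes. That test called 0 genes at an adjusted p under 0.05 (0% of those tested), while 315 genes passed an unadjusted p of 0.05 and DESeq2 called 5 of the 29127 genes it was run on, 4 of them among those tested by edgeR. Of the smooth muscle markers, all 8 had counts and all 8 had a log2 fold change below 0, their summed level being 5772 to 6799 CPM in shCTR and 4442 to 4811 CPM in shMettl14. Endothelial markers were well represented (Pecam1 477 to 820 CPM, Cdh5 508 to 818 CPM) and summed to 2006 and 4005 CPM in shCTR A and B against 1861 and 2551 CPM in shMettl14 A and B. Skeletal and cardiac muscle markers summed to 34.2 and 19.3 CPM in shCTR A and B and to 11.9 and 19.9 CPM in shMettl14 A and B, and Myh4 was at 0 counts in both shMettl14 libraries. Of these 8 markers 6 were tested, and all 6 had a log2 fold change below 0, with a median of -2.18. Within both letters, 5 of the 6 were lower, against 27.7% of all genes tested. Their median SE was 0.91, and shCTR A and B differed over them by a median of 1.87 in absolute log2 ratio. Markers of leukocytes (11.0 to 14.8 CPM) and adipocytes (0.034 to 0.18 CPM) were low, and those of adventitial fibroblasts overlapped between groups (499 to 669 CPM in shCTR, 537 to 635 CPM in shMettl14). Of the secretory cell markers, Jchain was at 0.084 to 0.36 CPM, while Krt18 (42.9 to 402 CPM) and Sdc1 (113 to 172 CPM) were present. The part of these marker differences in the results on the 36 genes was not tested, and fewer cells of a type cannot be told apart from less RNA per cell in bulk RNA.

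Promoters were searched for the ER stress response element (ERSE), the motif through which ATF6 acts with NF-Y. The 36 genes were chosen as genes of this response, so a high share with the element is no independent result. RefSeq promoter windows of GRCm38.p6, reaching from 250 bases before to 50 bases after the start, were matched for 31 of the 36 genes. Hyou1, Manf, Derl1, Atf6 and Sec61a1 had no window. The letters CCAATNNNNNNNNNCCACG, searched on both strands, occurred in 9 of the 31 genes (29.0%), namely Calr, Canx, Creld2, Derl3, Dnajc3, Hsp90b1, Hspa5, Pdia6 and Syvn1. Of all 27025 genes with a window, 0.137% held it. The sites of 6 genes are shown because these genes cover both kinds of pattern seen below, lower within both letters and opposite in sign between letters. Sequences read 5′ to 3′ on the gene's strand, and capitals mark the element, which reads as its reverse complement in Calr and Creld2.
Hspa5: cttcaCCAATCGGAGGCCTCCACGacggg
Calr: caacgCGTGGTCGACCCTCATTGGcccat
Dnajc3: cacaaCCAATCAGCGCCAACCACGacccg
Syvn1: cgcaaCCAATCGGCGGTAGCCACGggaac
Creld2: cttctCGTGGCGAGCCTCAATTGGtccac
Canx: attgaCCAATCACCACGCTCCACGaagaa

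These stretches lie at chr2:34772020-34772048 (plus strand) for Hspa5, chr8:84847070-84847098 (minus) for Calr, chr14:118937822-118937850 (plus) for Dnajc3, chr19:6046527-6046555 (plus) for Syvn1, chr15:88819515-88819543 (plus) for Creld2 and chr11:50325795-50325823 (minus) for Canx. The element begins 65 bases before the RefSeq start in Hspa5, 44 in Syvn1, 105 in Dnajc3, 126 in Creld2, 145 in Canx and 162 in Calr. Hsp90b1 held 2 such elements, beginning 107 and 212 bases before its start. The second form of the element, ERSE-II (ATTGGNCCACG), occurred in Dnajb11 and Herpud1 and in 0.0444% of all genes. The core TGACGTGG of the unfolded protein response element occurred in 0 of the 31 windows and in 0.714% of all genes. The C/EBP-ATF composite site through which ATF4 acts (TGATGNAA) occurred in Asns, Chac1, Herpud1 and Trib3 (12.9% of the 31 genes, and 4.51% of all genes). A match of letters is a description of the window and does not show that a factor was bound there in these cells.

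Of the 36 genes, 0 passed an adjusted p of 0.05, and the adjusted p was 0.99997 for each by edgeR's quasi-likelihood test. By DESeq2 0 were called as well. An unadjusted p under 0.05 was reached by 0 of the 36, where the share over all genes was 0.656% in the higher and 1.01% in the lower direction, and the lowest unadjusted p was 0.084, for Ddit3. The log2 fold change was below 0 in 27 genes and above 0 in 9, with a median of -0.20 against 0.0094 over all genes and -0.039 over genes with a mean of at least 10 CPM. It ranged from -0.55 (Derl3) to 0.28 (Eif2ak3), and its SE from 0.18 to 0.54. In 16 of the 36 genes it was larger than its SE, and in 3 (Dnajc3, Edem1 and Ddit3) larger than 2 SE.

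**Figure D1:**
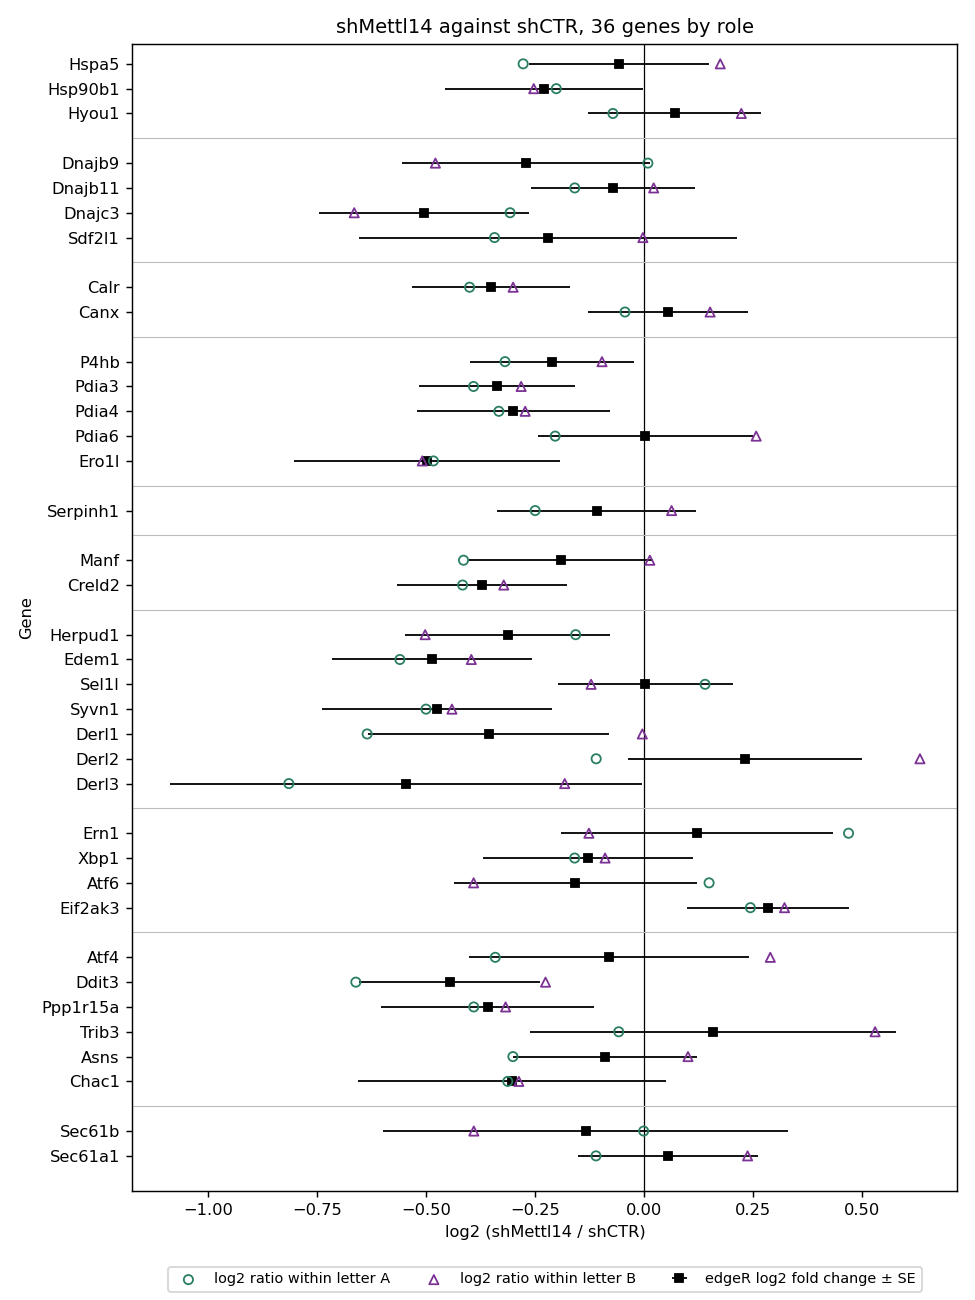
The log2 ratio of shMettl14 to shCTR (horizontal axis) for the 36 genes, grouped by role. Squares with bars are edgeR's log2 fold change ± SE (n = 2 libraries per group), circles the ratio within letter A and triangles the ratio within letter B. The squares lie between -0.55 and 0.28, 27 of 36 of them below 0, and in 16 genes the circle and the triangle lie on opposite sides of 0.

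Within letters, 31 of the 36 genes were lower in shMettl14 in letter A and 23 in letter B. The median log2 ratio was -0.29 in A and -0.12 in B. Both letters were lower in 19 genes and higher in 1, Eif2ak3, while the other 16 had opposite signs. Among the 19, some ratios were close to 0, namely Sdf2l1 (-0.0031) and Derl1 (-0.0044) in letter B and Sec61b (-0.0014) in letter A. Over all genes tested, 27.7% were lower within both letters and 30.0% higher. Since 35 of the 36 genes exceeded 10 CPM in all 4 libraries, the 9098 genes with a mean of at least 10 CPM give a closer background, and of these 35.3% were lower and 24.5% higher within both letters. The direction depended in part on scaling. With upper-quartile factors 16 of the 36 genes were lower and 1 higher within both letters, against 25.9% and 32.0% of all genes. With scaling by total counts alone, which shifted the median ratio of all genes to 0.08 in A and 0.16 in B, 14 of the 36 genes were lower and 6 higher within both letters, against 18.3% and 41.7% of all genes. The median ratio of the 36 genes was then -0.21 in A and 0.017 in B.

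The 2 groups did not overlap in 12 of the 36 genes, of which 11 were lower in shMettl14 (Dnajc3, Calr, P4hb, Pdia3, Pdia4, Creld2, Herpud1, Edem1, Syvn1, Derl3 and Ddit3) and 1 was higher (Eif2ak3). Over all genes tested, the groups did not overlap in 13.3% in the lower and 14.7% in the higher direction. Over genes with a mean of at least 10 CPM the shares were 17.6% and 9.91%. Overlap was assessed after TMM scaling only, and these counts were not repeated with other scalings. Some separations were narrow, as in Pdia4, at 286 CPM in shCTR A and 283 CPM in shMettl14 B. In all 4 fits that each left out 1 library, 16 of the 36 genes kept their sign. These include the 12 genes, for which groups that do not overlap all but fix the sign in advance, so this is no further support. Without shCTR A, 16 of the 36 lay above 0 and 20 below, with a median of -0.11, whereas without shCTR B 6 lay above and 30 below, with a median of -0.27. The summed level of the 36 genes was 12096 and 11016 CPM in shCTR A and B and 10084 and 10348 CPM in shMettl14 A and B, so that both shMettl14 libraries lay below both shCTR libraries after TMM scaling. With scaling by total counts alone the sums were 11853 and 10405 CPM in shCTR A and B and 10445 and 10784 CPM in shMettl14 A and B, and shCTR B lay below both shMettl14 libraries.

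**Figure D2:**
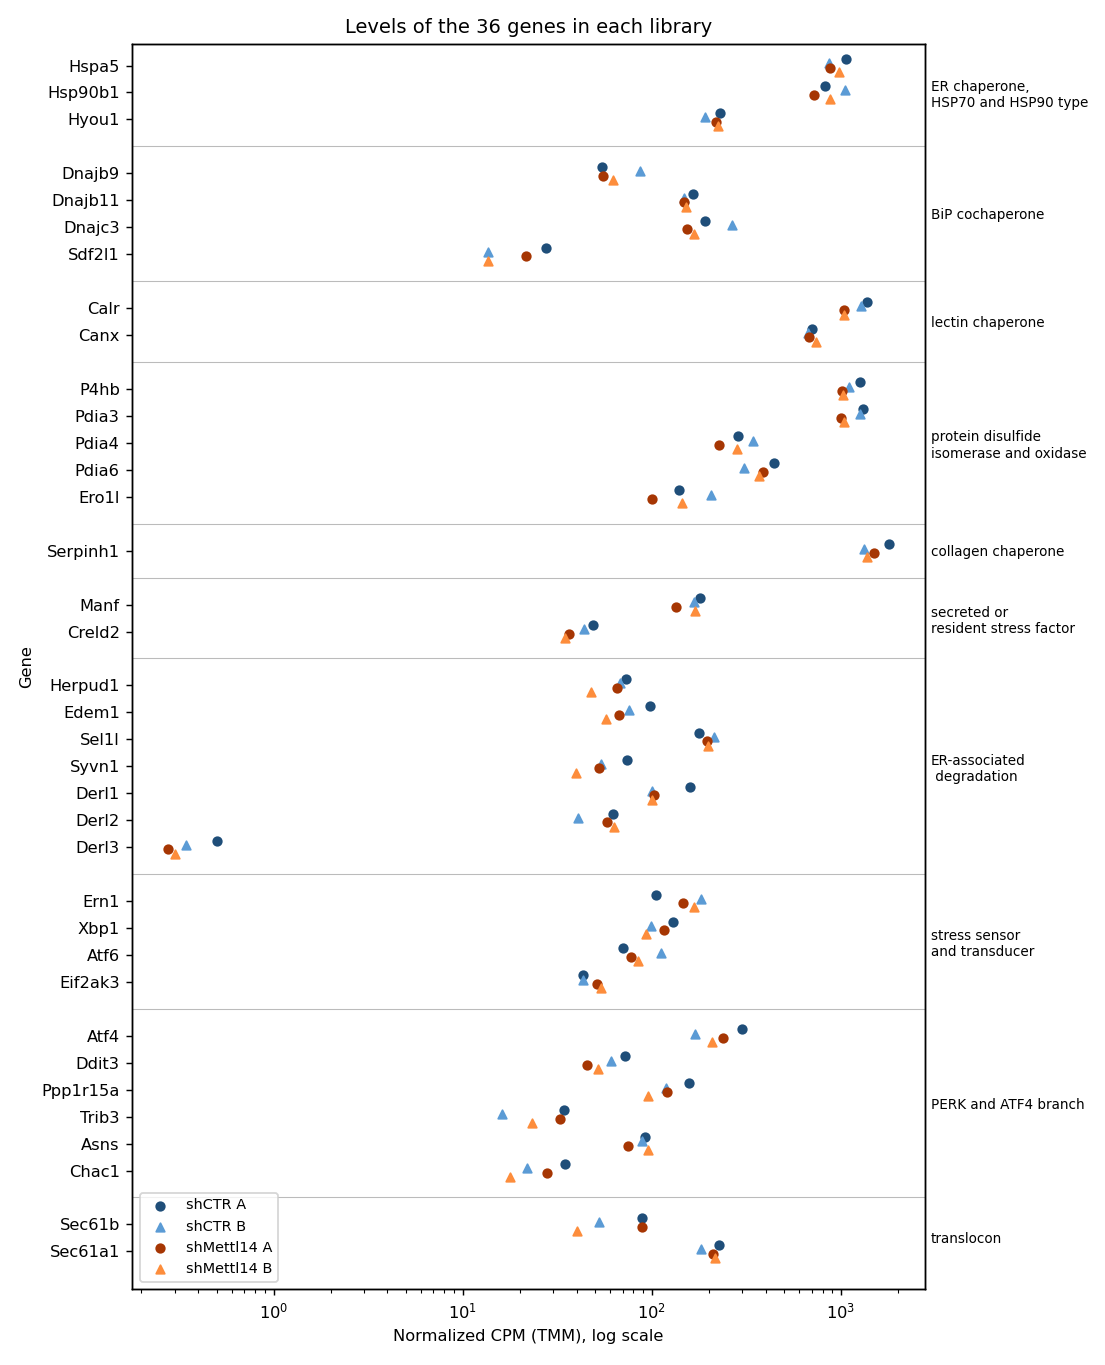
Normalized CPM (horizontal axis, log scale) of the 36 genes in the 4 libraries, grouped by role. Blue symbols are shCTR, orange and red ones shMettl14, circles letter A and triangles letter B. Serpinh1 reaches the highest level (1789 CPM in shCTR A) and Derl3 stays at or below 0.50 CPM, and for most genes the 4 symbols lie close together.

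Levels per length of exon spanned the whole range of the list. In shCTR the mean level was 636 CPM per kilobase for Serpinh1, 461 for Calr, 413 for P4hb and 410 for Pdia3. Hsp90b1 (232 CPM per kilobase) and Hspa5 (228) followed. The sensors were far lower on the same scale, with 17.6 CPM per kilobase for Ern1, 9.85 for Atf6 and 7.16 for Eif2ak3. Derl3 was the lowest gene (0.21 CPM per kilobase), with 33 counts in its lowest library.

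BiP, encoded by Hspa5 (chr2:34771970-34777547, plus strand), is the HSP70 chaperone of the ER lumen and the usual reporter of the response. It was at 1062 CPM in shCTR A, 864 in shCTR B, 876 in shMettl14 A and 974 in shMettl14 B. The 2 shMettl14 values lay between the 2 shCTR values, and the log2 fold change was -0.06 ± 0.21. Its ratio was -0.28 in letter A and 0.17 in letter B. Hsp90b1, the HSP90 of the ER, was lower within both letters (-0.20 and -0.25) with overlapping groups. Of its exon bases, 10.3% are shared with genes on the other strand and 5.38% with genes on its own strand. Hyou1, which exchanges nucleotide on BiP, had a log2 fold change of 0.07 ± 0.20. These 3 chaperones summed to 2119 and 2102 CPM in shCTR A and B and to 1814 and 2077 CPM in shMettl14 A and B.

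Dnajc3 (chr14:118937976-118981697, plus strand) encodes p58IPK, a J-domain cochaperone of BiP. It was at 190 CPM in shCTR A and 267 in shCTR B, and at 154 in shMettl14 A and 168 in shMettl14 B. Both shMettl14 libraries lay below both controls, with a log2 fold change of -0.51 ± 0.24 and ratios of -0.31 in A and -0.67 in B. The 2 control libraries themselves differed by 0.49 on the log2 scale. Of the other cochaperones, Dnajb9 (log2 fold change -0.27), Dnajb11 (-0.07) and Sdf2l1 (-0.22) had overlapping groups. Sdf2l1, a partner of Dnajb11, was at 27.5 and 21.7 CPM in the A libraries and at 13.7 CPM in both B libraries.

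Calreticulin and calnexin, the lectin chaperones that hold monoglucosylated glycoproteins, differed from each other. Calr (chr8:84841850-84846934, minus strand) was at 1379 CPM in shCTR A, 1277 in shCTR B, 1045 in shMettl14 A and 1037 in shMettl14 B. Replicates of Calr lay close together, the groups did not overlap, and the log2 fold change was -0.35 ± 0.18. Canx was at 699 and 667 CPM in shCTR A and B and at 678 and 741 CPM in shMettl14 A and B, a log2 fold change of 0.05 ± 0.18. The difference between Calr and Canx was not tested.

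Disulfide bonds in the ER are made and exchanged by the protein disulfide isomerases, which the oxidase Ero1l recharges. Pdia3 (chr2:121413775-121438687, plus strand), the isomerase that works with calreticulin and calnexin, was at 1312 CPM in shCTR A, 1261 in shCTR B, 999.8 in shMettl14 A and 1037 in shMettl14 B. The groups did not overlap, with a log2 fold change of -0.34 ± 0.18. Ero1l was at 140 CPM in shCTR A, 206 in shCTR B, 99.8 in shMettl14 A and 145 in shMettl14 B. Its ratio was -0.48 in A and -0.51 in B, yet the groups overlapped because both B libraries lay above their A counterparts by 0.53 to 0.56 on the log2 scale. P4hb, which is also a subunit of collagen prolyl 4-hydroxylase, and Pdia4 had log2 fold changes of -0.21 ± 0.19 and -0.30 ± 0.22 without overlap. Pdia6 was the exception, with 444 and 308 CPM in shCTR A and B around 385 and 368 CPM in shMettl14 A and B.

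Serpinh1 (chr7:99345376-99353239, minus strand) encodes HSP47, the chaperone of procollagen. It was at 1789 CPM in shCTR A, 1320 in shCTR B, 1504 in shMettl14 A and 1378 in shMettl14 B. The 2 shMettl14 values lay between the 2 controls, with a log2 fold change of -0.11 ± 0.23 and ratios of -0.25 in A and 0.06 in B. The secreted factor Creld2 (chr15:88819646-88826683, plus strand) was at 49.0 and 43.7 CPM in shCTR A and B and at 36.7 and 34.9 CPM in shMettl14 A and B. Its groups did not overlap, and its log2 fold change was -0.37 ± 0.19 with ratios of -0.42 and -0.32. Manf, the other factor, had ratios of -0.41 in A and 0.01 in B, and 8.85% of its exon bases are shared with genes on the other strand.

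ER-associated degradation had the lowest median log2 fold change of the roles with more than 1 gene (-0.36 over 7 genes). Within both letters 5 of the 7 were lower, against 27.7% of all genes tested and 35.3% at a mean of at least 10 CPM. The 5 include Derl1, with a ratio of -0.0044 in letter B, and Derl3, at 0.28 to 0.50 CPM. Edem1 (chr6:108828641-108859356, plus strand), which directs misfolded glycoproteins to degradation, was at 98.4 CPM in shCTR A, 75.4 in shCTR B, 66.7 in shMettl14 A and 57.3 in shMettl14 B. Its log2 fold change was -0.49 ± 0.23. Syvn1 (chr19:6046576-6053712, plus strand) encodes the ubiquitin ligase HRD1 and was at 74.0 CPM in shCTR A, 54.1 in shCTR B, 52.3 in shMettl14 A and 39.9 in shMettl14 B. Its log2 fold change was -0.48 ± 0.26 with ratios of -0.50 and -0.44, and shMettl14 A lay just below shCTR B. Sel1l, the adaptor of the same ligase, did not share this pattern, with a log2 fold change of 0.0026 ± 0.20. Herpud1 and Derl3 were lower without overlap (-0.31 and -0.55), Derl1 was lower with overlap (-0.36), and Derl2 had ratios of -0.11 and 0.63.

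Among the sensors, Eif2ak3 (chr6:70844515-70905245, plus strand), which encodes PERK, was the only one of the 36 genes higher within both letters. It was at 43.2 and 43.1 CPM in shCTR A and B and at 51.1 and 53.8 CPM in shMettl14 A and B. The replicates lay within 0.074 of each other on the log2 scale, the groups did not overlap, and the log2 fold change was 0.28 ± 0.19. Other genes on the opposite strand cover 8.05% of its exon bases, and the strand setting of the counting is not given in the sources used here. Ern1, the gene of IRE1, was at 106 CPM in shCTR A, 182 in shCTR B, 146 in shMettl14 A and 167 in shMettl14 B. Its ratio was 0.47 in A and -0.13 in B. Atf6 showed the same arrangement, at 70.3 and 111 CPM in shCTR A and B and at 78.0 and 85.0 CPM in shMettl14 A and B, with ratios of 0.15 and -0.39. Xbp1, the target of IRE1, was at 129 and 98.9 CPM in shCTR A and B and at 116 and 92.9 CPM in shMettl14 A and B, a log2 fold change of -0.13 ± 0.24.

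In the PERK branch, Atf4 (chr15:80255184-80257541, plus strand) was at 301 CPM in shCTR A, 170 in shCTR B, 237 in shMettl14 A and 208 in shMettl14 B. Its 2 shMettl14 values lay between the controls, with ratios of -0.34 and 0.29 and a log2 fold change of -0.08 ± 0.32. Ddit3 (chr10:127290774-127296288, plus strand), which encodes the transcription factor CHOP, was at 72.1 CPM in shCTR A, 61.0 in shCTR B, 45.6 in shMettl14 A and 52.2 in shMettl14 B. The groups did not overlap, and the log2 fold change was -0.45 ± 0.21 with ratios of -0.66 and -0.23. Ppp1r15a encodes GADD34, the subunit that directs a phosphatase to eIF2α, and was at 157 CPM in shCTR A, 119 in shCTR B, 120 in shMettl14 A and 95.5 in shMettl14 B. Its ratios were alike in both letters (-0.39 and -0.32), while shMettl14 A and shCTR B were nearly equal. Trib3 (log2 fold change 0.16 ± 0.42), Asns (-0.09 ± 0.21) and Chac1 (-0.30 ± 0.35) had overlapping groups. Of the translocon subunits, Sec61b and Sec61a1 had log2 fold changes of -0.13 ± 0.47 and 0.05 ± 0.21. Sec61b has near copies elsewhere in the transcriptome that could share its reads. Of these copies, Gm10320 and Gm5870 held at most 27 and 5 counts in a library, where Sec61b held 5218 in its lowest library. Genes on the other strand cover 8.16% of the exon bases of Sec61a1.

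Within shCTR, the difference between letters was often larger than that between hairpins. The 2 measures are not alike, because a letter difference compares single libraries and the hairpin difference compares groups of 2, which lowers its noise. Within shCTR, B and A differed by a median of 0.38 in absolute log2 ratio over the 36 genes, within shMettl14 by 0.17, and the absolute hairpin difference had a median of 0.23. In 22 of the 36 genes the letter difference in shCTR exceeded the hairpin difference, as it did in 13578 of the 18916 genes tested. In shCTR, 28 of the 36 genes were lower in B than in A, with Trib3 (-1.08), Sdf2l1 (-1.01) and Atf4 (-0.82) at one end and Ern1 (0.78), Dnajb9 (0.67) and Atf6 (0.66) at the other. In shMettl14, 15 of the 36 were lower in B than in A. Across the 36 genes the letter differences of the 2 groups, which share no library, had a Pearson r of 0.66 and a Spearman rho of 0.70, against 0.58 and 0.52 across all genes tested and 0.82 and 0.75 across those with a mean of at least 10 CPM. The hairpin ratios of the 2 letters had an r of 0.25 and a rho of 0.29 across the 36 genes, against 0.12 and 0.18 across all genes and 0.32 and 0.30 across those with a mean of at least 10 CPM. These coefficients are over genes of the same 4 libraries, which are not independent replicates, and are given as a description.

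**Figure D3:**
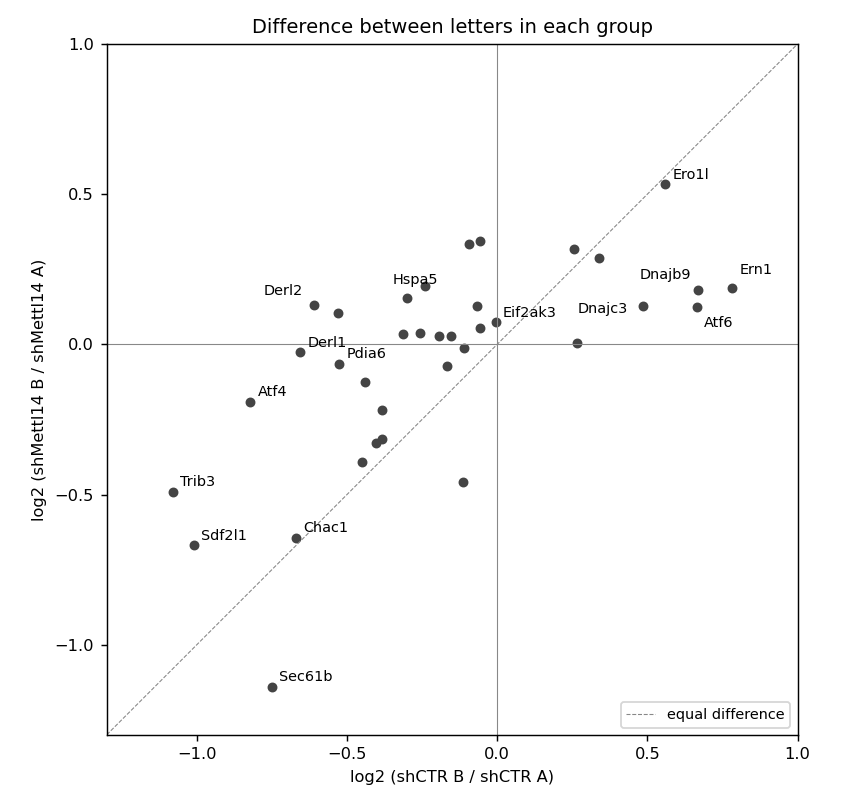
Each point is 1 of the 36 genes. The horizontal axis is the log2 ratio of shCTR B to shCTR A, the vertical axis that of shMettl14 B to shMettl14 A, and the dashed line marks equal differences. Trib3, Sdf2l1 and Sec61b lie far to the lower left and Ero1l to the upper right, and most points spread wider along the shCTR axis (median absolute value 0.38) than along the shMettl14 axis (0.17).

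The 9 genes with an ERSE in their promoter window included 6 lower within both letters and 5 lower without overlap between groups. Their median log2 fold change was -0.35. The 22 genes with a window but no ERSE included 12 lower within both letters and 6 lower without overlap, with a median of -0.17. Eif2ak3, higher without overlap, was also among these 22. Over all genes tested, 27.7% were lower within both letters and 13.3% were lower without overlap. Over genes with a mean of at least 10 CPM these shares were 35.3% and 17.6%. Within the ERSE genes, Dnajc3, Syvn1, Creld2, Calr, Hsp90b1 and Derl3 lay below 0 in both letters, whereas Hspa5, Pdia6 and Canx had opposite signs in A and B. The 4 genes with the composite site had a median of -0.20. The difference between genes with and without an element was not tested.

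Further genes of the same machinery were taken as 8 lists of 161 genes, of which 160 were tested. By edgeR's quasi-likelihood test none of the 160 passed an adjusted p of 0.05. By the same test 5 had an unadjusted p under 0.05 in the lower direction and 0 in the higher, against 1.01% and 0.656% of all genes tested. Within both letters 71 were lower and 31 higher, against 27.7% and 30.0% of all genes tested. Over genes with a mean of at least 10 CPM these shares were 35.3% and 24.5%. Groups did not overlap in 36 lower and 13 higher genes, against 13.3% and 14.7% of all genes tested and 17.6% and 9.91% at a mean of at least 10 CPM. The median log2 fold change of the 160 genes was -0.10. Nupr1, a stress-induced chromatin protein among the ATF4 targets, was at 410 and 539 CPM in shCTR A and B and at 249 and 257 CPM in shMettl14 A and B. Its log2 fold change of -0.91 ± 0.22 was the largest of these 5. Dad1, a subunit of the oligosaccharyltransferase that adds N-glycans, was at 140 and 163 CPM in shCTR A and B and at 103 and 72.7 CPM in shMettl14 A and B (-0.78 ± 0.25). Fam8a1, a cofactor of the HRD1 ligase, was at 115 and 122 CPM in shCTR A and B and at 79.3 and 77.5 CPM in shMettl14 A and B (-0.60 ± 0.18). The ER calcium-binding protein Rcn3 was at 270 and 283 CPM against 202 and 189 CPM (-0.50 ± 0.19). The mitochondrial serine hydroxymethyltransferase Shmt2 was at 84.8 and 95.3 CPM against 65.3 and 62.8 CPM (-0.49 ± 0.19). For these 5 genes both shMettl14 libraries lay below both shCTR libraries, which their selection by a low p favours.

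By list, the genes lower and higher within both letters numbered 13 and 4 of 25 further ER chaperones, 13 and 3 of 22 genes of translocation and signal peptide processing, 9 and 3 of 18 genes of collagen modification and 5 and 2 of 9 oligosaccharyltransferase genes. The ATF4 targets were more evenly divided, with 15 lower and 9 higher of 36 and a median ratio of -0.17 in A and 0.0033 in B. Disulfide and redox enzymes (5 and 4 of 16), further genes of ER-associated degradation (7 and 2 of 21) and stress sensors with their regulators (4 and 4 of 13) had median log2 fold changes of -0.033, -0.095 and -0.0062. For comparison, 27.7% of all genes tested were lower and 30.0% higher within both letters, and 35.3% and 24.5% of those with a mean of at least 10 CPM.

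**Figure D4:**
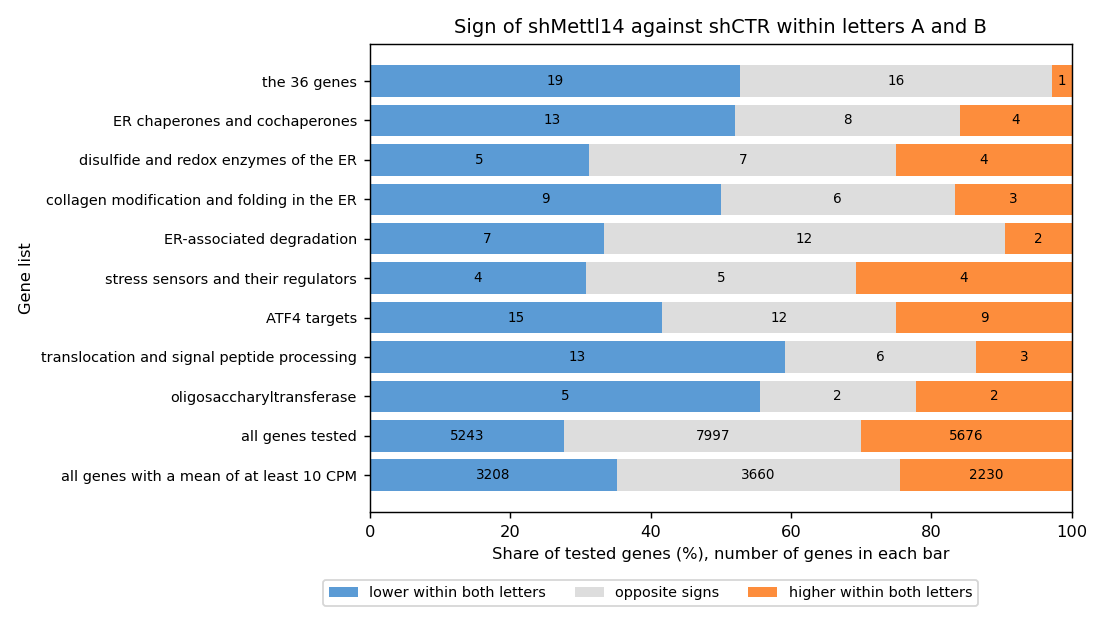
Share of tested genes (horizontal axis, percent) that were lower within both letters (blue), opposite in sign (grey) or higher within both letters (orange) in shMettl14 against shCTR, with the number of genes in each bar. The 36 genes (19 lower and 1 higher) stand at the top, the 8 further lists below them, and all genes tested (5243 lower and 5676 higher) and those with a mean of at least 10 CPM at the bottom.

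The KDEL receptors, which return BiP and other ER residents from the Golgi, were unlike each other. Kdelr2 was at 208 and 138 CPM in shCTR A and B and at 75.0 and 68.9 CPM in shMettl14 A and B. Both shMettl14 libraries lay well below both controls, with a log2 fold change of -1.27 ± 0.27 and an adjusted p of 0.99997 by edgeR's quasi-likelihood test (0.487 by DESeq2). Kdelr1 was at 183 and 108 CPM in shCTR A and B and at 140 and 113 CPM in shMettl14 A and B, with overlapping groups and a log2 fold change of -0.20 ± 0.32. Kdelr3 also overlapped, at 94.3 and 92.5 CPM against 84.6 and 103 CPM (0.01 ± 0.20).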

How the data were processed

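Poly-A mRNA from 4 libraries, 2 shCTR and 2 shMettl14, was sequenced as paired ends after a stranded preparation. Per the study's methods and the submitters' processing notes, the authors mapped reads to mm10 with STAR and used featureCounts, with Ensembl genes, to count them. Versions and the strand and multimapping settings are not given in the sources used here. The deposited values are raw read counts per gene symbol, neither normalized nor pooled, and totals were 114343653 to 124815868 per library. PCR duplicates were not marked by molecular identifiers, so counts are not independent molecules.

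The counts were analysed with edgeR 4.0.16 in R 4.3.3 by its robust quasi-likelihood test after filterByExpr and TMM scaling, with group as the only term and Benjamini-Hochberg adjustment over 18916 genes. Normalized CPM are TMM-scaled. Ratios within letters used a prior count of 2. Alternatives were RLE and upper-quartile factors, total counts, a prior count of 0.5, testing without the filter, a minimum of 10 counts per library, DESeq2 1.42.0 (the test used by the authors), the letter as a block and leaving out each library. The background of genes averaging 10 CPM or more was added after the values were seen. Scripts were tested on simulated counts in which 200 genes were given a log2 fold change of 2. With letters alike, the main test found 93.5% of them (7 false calls). With letters differing as measured, it found 0% (0 false calls), the replicate block 95% (16 false calls) and DESeq2 63.5% (1 false call). A count of 0 genes called by the main test therefore does not show that no gene changed.

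The 36 genes, the 8 further lists and the marker lists were chosen with earlier results of these data known. Values in every library are given for the 10 genes with the lowest unadjusted p, for Ern1, Xbp1, Atf6, Eif2ak3, Atf4, Ddit3, Hspa5 and Serpinh1, for Mettl14 and the KDEL receptors, and for up to 3 genes per further list with an unadjusted p under 0.05. Values in every library of Canx, Pdia6 and Sdf2l1 were added after they were seen. Gene positions, exon lengths and overlaps came from GENCODE M21, and promoter windows from RefSeq, both on GRCm38. Near copies were searched with blastn at 95% identity over at least 200 bases, and 2 of the 36 genes had one outside their own locus, Derl1 and Sec61b.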

Additional observations from a re-analysis of the deposited data

How the results depend on the processing

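Of the 36 genes, 35 exceeded 10 CPM in every library, and Derl3, with 33 to 57 counts per library, had the largest SE (0.54). None of the 36 genes was called in any alternative fit of all 4 libraries. Their median log2 fold change stayed below 0 in every fit (-0.27 to -0.11 on leaving out a library). Scaling by total counts alone was not fitted, and the median ratio of the 36 genes was then -0.21 in A and 0.017 in B. The number of genes called over all tested was 5 with DESeq2 (of 29127) and 0 to 1 on leaving out a library. The genes with an unadjusted p under 0.05 numbered 78 to 1399 on leaving out a library over all genes, 0 to 3 among the 36 and 0 to 10 in the further lists, where no filter gave 3. The genes higher within both letters numbered 6 with total counts alone. Mettl14 was called with DESeq2 (-2.09) and had values of -2.15 to -2.01 on leaving out a library.

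With the letter as a replicate block, 9 genes were called over all tested, with 1941 genes (892 higher, 1049 lower), 8 of the 36 (all lower) and 22 of the further lists (6 higher, 16 lower) at an unadjusted p under 0.05. Mettl14 (-2.08) and Kdelr2 (-1.24, adjusted p 0.042 by edgeR's quasi-likelihood test) were among those called. The deviations of same-lettered libraries had a correlation of 0.58, but with 2 pairs and no statement on the letters, the samples share only a letter.

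With RLE factors and DESeq2, Pdia6 (-0.0059 and -0.0033) and Sel1l (-0.0068 and -0.0021) turned sign. On leaving out each library in turn, log2 fold changes ranged across 0 in 20 of the 36 genes, from -0.24 to 0.29 for Pdia6, -0.12 to 0.14 for Sel1l, -0.20 to 0.10 for Hspa5, -0.056 to 0.21 for Hyou1, -0.56 to 0.098 for Dnajb9, -0.15 to 0.013 for Dnajb11, -0.64 to 0.37 for Sdf2l1, -0.0064 to 0.12 for Canx, -0.32 to 0.13 for Serpinh1, -0.65 to 0.013 for Derl1, -0.046 to 0.57 for Derl2, -0.21 to 0.56 for Ern1, -0.31 to 0.081 for Xbp1, -0.45 to 0.21 for Atf6, -0.44 to 0.39 for Atf4, -0.29 to 0.80 for Trib3, -0.27 to 0.073 for Asns, -0.66 to 0.074 for Chac1, -0.81 to 0.33 for Sec61b and -0.097 to 0.22 for Sec61a1. The cause was not tested.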
